A study of Mus musculus with 6 samples.

Results

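The genes of oxidative phosphorylation (OXPHOS) were followed in RNA sequencing of mouse regulatory T cells (Tregs). The members were the protein-coding genes whose symbols start with Nduf, Uqcr, Cox4 to Cox8, Atp5 or mt-, together with Sdha, Sdhb, Sdhc and Sdhd. This rule uses names only and took 107 of the 55840 genes in the deposited table, of which 94 are encoded in the nucleus and 13 in mitochondrial DNA. By complex, nuclear and mitochondrially encoded genes numbered 36 and 7 for complex I, 4 and 0 for complex II, 8 and 1 for complex III, 20 and 3 for complex IV, and 18 and 2 for complex V. The remaining 8 nuclear genes are Ndufaf genes, whose products assemble complex I. Ndufa4 and Ndufa4l2 were counted with complex IV, because the Ndufa4 protein is a subunit of that complex.

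Tregs are CD4 T cells that restrain immune responses and depend on the transcription factor Foxp3. The study compared wild-type (WT) Tregs with Tregs labelled Exon2KO, from spleen and lymph nodes, with 3 libraries of each genotype that the labels call biological replicates. The series title writes the altered gene as Foxp3 with a delta and the number 2. The labels give no age, strain, Cre driver or treatment, and whether animals were pooled is not stated. Column names carry the numbers 2, 6 and 20, each once in each genotype, and libraries are named here by genotype and number. No label says what these numbers stand for. Where values of 3 libraries are given, they are always in the order 2, 6 and 20.

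In the respiratory chain, complexes I and II take electrons from NADH and from succinate, complex III passes them to cytochrome c, complex IV reduces oxygen, and complex V is the ATP synthase driven by the resulting proton gradient. Complexes I, III, IV and V combine subunits made in the cytosol from nuclear genes with a few subunits made inside the mitochondrion, whereas complex II is wholly nuclear encoded. Tregs are known for using oxidative metabolism more than activated conventional T cells do.

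Total counts ran from 17998216 to 21003496 per library, so that 3 counts correspond to 0.141 to 0.169 CPM, which are counts scaled to library size. This floor covers counting error only. For the edited gene Foxp3, gene-level counts lay between 10934 and 15997 for the WT libraries and between 13336 and 16437 for the Exon2KO libraries. They overlapped between genotypes, and counts per gene cannot check the loss of a single exon. The Treg markers Foxp3, Il2ra, Ctla4, Ikzf2, Cd4 and Cd3e summed to 3247, 2999 and 3477 CPM in WT against 2936, 2767 and 3119 CPM in Exon2KO. The genotypes overlapped, and Exon2KO was lower at each of the 3 numbers. Of these 6 markers 3 were lower in Exon2KO in edgeR: Ctla4 by a log2 fold change of -0.85 (adjusted p = 0.00677), Ikzf2 by -0.66 (adjusted p = 0.024) and Il2ra by -0.52 (adjusted p = 0.0429). The other 3 had log2 fold changes above 0, up to 0.22, and were not called. Of all tested genes, 1.58% were called lower in Exon2KO. Markers of other cells were at much lower levels than the Treg markers. The 6 B cell genes summed to 38.6 to 44.7 CPM in WT and 31.6 to 34.3 CPM in Exon2KO, with no overlap, although 4 of the 6 had a log2 fold change above 0. The sums of 7 myeloid genes were 34.4 to 79.4 CPM in WT and 29.7 to 65.0 CPM in Exon2KO, and those of 8 erythroid and platelet genes 5.63 to 17.6 and 3.60 to 13.9 CPM, in both cases lower in Exon2KO at each number. The 6 CD8 and NK genes came to 18.6 to 22.1 CPM in WT and 15.7 to 22.8 CPM in Exon2KO. The 6 stromal and endothelial genes, mostly Pecam1, summed to 165 to 192 CPM in WT and 189 to 225 CPM in Exon2KO and the sum was higher in Exon2KO at each number. Of the 3 tested, Pecam1 was at 0.24 on the log2 scale, while Col1a1 and Col1a2, at no more than 2.03 CPM on average in either genotype, were at -1.20 and -1.54. The 7 fat and muscle genes reached at most 1.18 CPM. None of these other markers was called without the replicate block described below. With it 1 of 6 B cell genes, Cd79b, and 1 of 7 myeloid genes, Lyz2, were lower and 1 of 3 tested stromal and endothelial genes, Pecam1, was higher in Exon2KO (edgeR adjusted p = 0.00501, 0.0413 and 0.0164). The part of these marker differences, those of Treg genes included, in the OXPHOS values was not tested.

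Sequence bears on how part of the mitochondrially encoded genes can be counted, so the relevant sequences are shown first. A row of 7 annotated genes on chromosome 1, between 24611535 and 24616197 on the minus strand of GRCm38, copies part of the mitochondrial genome. The starts of mt-Co2, subunit 2 of cytochrome c oxidase, and of its chromosome 1 copy Gm28661 were the same base for base over the 681 aligned bases, of which 90 are shown (5′ to 3′, GENCODE M21 transcripts):
mt-Co2: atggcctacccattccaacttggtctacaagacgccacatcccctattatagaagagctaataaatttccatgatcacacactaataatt
Gm28661: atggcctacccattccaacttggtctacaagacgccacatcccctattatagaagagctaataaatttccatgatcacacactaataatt

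The starts of mt-Nd3, a complex I subunit, and Gm28438 differed at 1 of 345 aligned bases, T3C counted from 1 at the first base of mt-Nd3 and given in capitals:
mt-Nd3: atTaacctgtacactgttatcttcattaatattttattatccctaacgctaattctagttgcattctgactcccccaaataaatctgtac
Gm28438: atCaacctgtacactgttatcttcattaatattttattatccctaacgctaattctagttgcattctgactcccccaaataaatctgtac

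For mt-Co1, the catalytic subunit of complex IV, the copy Gm29216 covers only the 483 bases at the 3′ end, with the change A1066T in capitals in the stretch from base 1063:
mt-Co1: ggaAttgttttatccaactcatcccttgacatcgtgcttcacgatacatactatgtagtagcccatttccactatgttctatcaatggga
Gm29216: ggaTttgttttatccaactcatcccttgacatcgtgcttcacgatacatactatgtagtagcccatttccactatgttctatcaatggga

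The start of mt-Nd6, a complex I subunit and the only member called in the fit with a replicate block described below, is shown because it had no such copy among annotated transcripts and is transcribed from the other strand than the rest:
mt-Nd6: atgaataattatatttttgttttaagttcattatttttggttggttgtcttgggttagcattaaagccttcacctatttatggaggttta

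The share of each transcript's 100-base windows that also occur in transcripts of another gene was computed from GENCODE M21. It was 99.9% for mt-Co3, 99.5% for mt-Co2 and mt-Atp6, 98.5% for mt-Nd4l and 97.6% for mt-Nd3. It was 60.8% for mt-Nd4, 30.8% for mt-Co1 and 3.19% for mt-Nd2, and 0% for mt-Nd1, mt-Nd5, mt-Nd6, mt-Cytb and mt-Atp8. Levels per length are given as RPKM, counts divided by the deposited gene length in kilobases and by library size, as the mean of 6 libraries. The 7 genes other than mt-Atp8 with at most 60.8% shared windows, which encode subunits of complexes I, III and IV, had levels from 668 RPKM (mt-Nd4) to 4893 RPKM (mt-Co1). The 5 genes with over 95% shared windows had levels from 3.37 RPKM (mt-Nd3) to 58.7 RPKM (mt-Co2). Counts of these 5 genes and of their copies cannot be read as the amount of either transcript, because identical reads could have been split between them or dropped, and how such reads were treated is not given in the sources used here. The same limit holds for the shared windows of mt-Nd4, mt-Co1 and mt-Nd2, so the level of mt-Nd4 in particular is uncertain. mt-Atp8 had 52 counts over all libraries with no shared window, and it overlaps mt-Atp6 by 43 bases. It lies between mt-Co2 and mt-Atp6, which both have copies on chromosome 1. Sequence between the annotated copies was not searched, so the 0% does not show that mt-Atp8 lacks a copy, and its level is uncertain too.

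**Figure D1:**
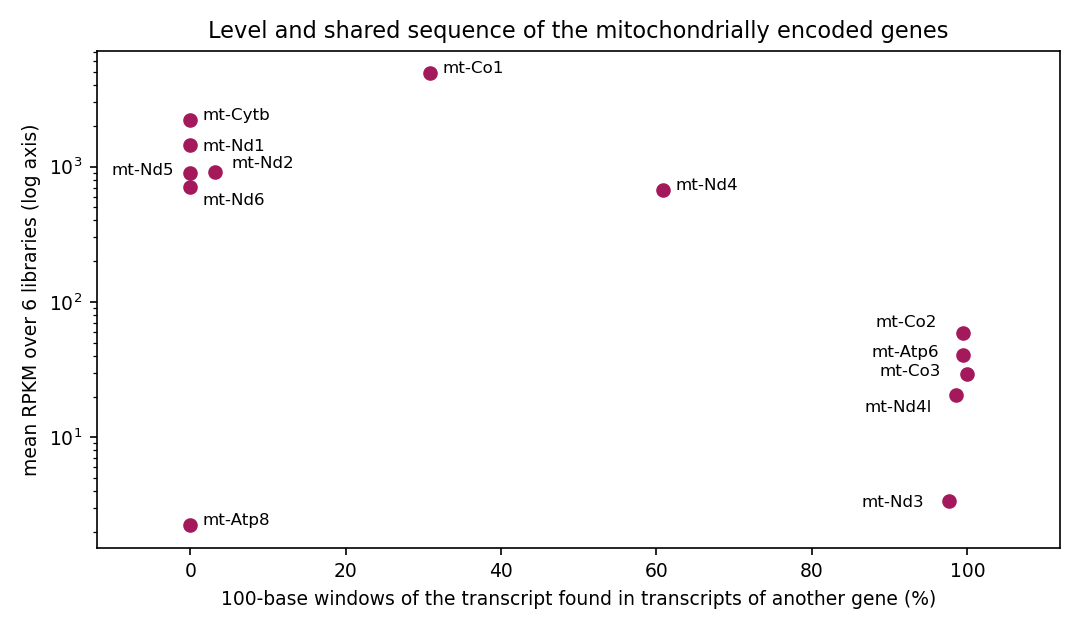
Mean RPKM over 6 libraries (log axis) of each of the 13 mitochondrially encoded genes against the percentage of its 100-base windows that occur in another gene's transcripts. The 5 genes above 95% lie at 58.7 RPKM or below, and mt-Atp8, at 0%, lies at 2.24 RPKM. Only annotated transcripts were searched.

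Among these 7 genes mt-Cytb, the cytochrome b of complex III, followed mt-Co1 with 2197 RPKM. The complex I subunits mt-Nd1, mt-Nd2, mt-Nd5 and mt-Nd6 had 1442, 908, 902 and 711 RPKM. mt-Co1 alone held 47.8% to 50.5% of the counts of the 13 genes in every library. This share, and the sums over the 13 genes, depend on how reads of the shared windows were treated. The 13 genes together held 1.66%, 1.75% and 1.33% of all counts for WT, against 1.60%, 1.74% and 1.18% for Exon2KO. The mean was 1.58% ± 0.220 in WT (SD, n = 3) and 1.51% ± 0.290 in Exon2KO (SD, n = 3). The ranges of the genotypes overlapped.

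Nuclear members all lay below these 7 genes per length and varied over a wide range. The highest was Cox7a2l, a factor in the joining of complexes III and IV, at 195 RPKM. It was followed by the complex IV subunits Cox8a (173 RPKM) and Cox6a1 (171 RPKM), the catalytic ATP synthase subunit gene Atp5b (158 RPKM) and Cox4i1 (154 RPKM). This order depends on the deposited gene lengths. In mean CPM, which is not divided by length, Atp5b stood at 671 and Cox7a2l at 289. In each library the median over the tested nuclear members of a complex was taken. This median was 45.4 ± 2.22 RPKM in WT for complex IV, 41.8 ± 2.93 for complex III, 41.7 ± 1.90 for complex II, 32.9 ± 2.94 for complex V and 23.7 ± 1.42 for complex I (SD, n = 3). In Exon2KO the medians stood in the order of 44.3 ± 2.05, 38.9 ± 1.42, 38.8 ± 1.95, 31.4 ± 0.437 and 21.6 ± 1.08 RPKM (SD, n = 3). Complexes II and III did not differ beyond this spread in either genotype, whereas complex I lay lowest of the 5 in both. The order of the complexes depends on the deposited gene lengths and on leaving out untested genes. Over all 20 nuclear complex IV genes, the median ran from 25.7 to 30.3 RPKM across libraries. Over all 18 of complex V it ran from 27.4 to 32.4 RPKM. The Ndufaf assembly genes were lower still, at 5.70 ± 0.122 RPKM in WT and 5.40 ± 0.311 RPKM in Exon2KO (SD, n = 3).

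**Figure D2:**
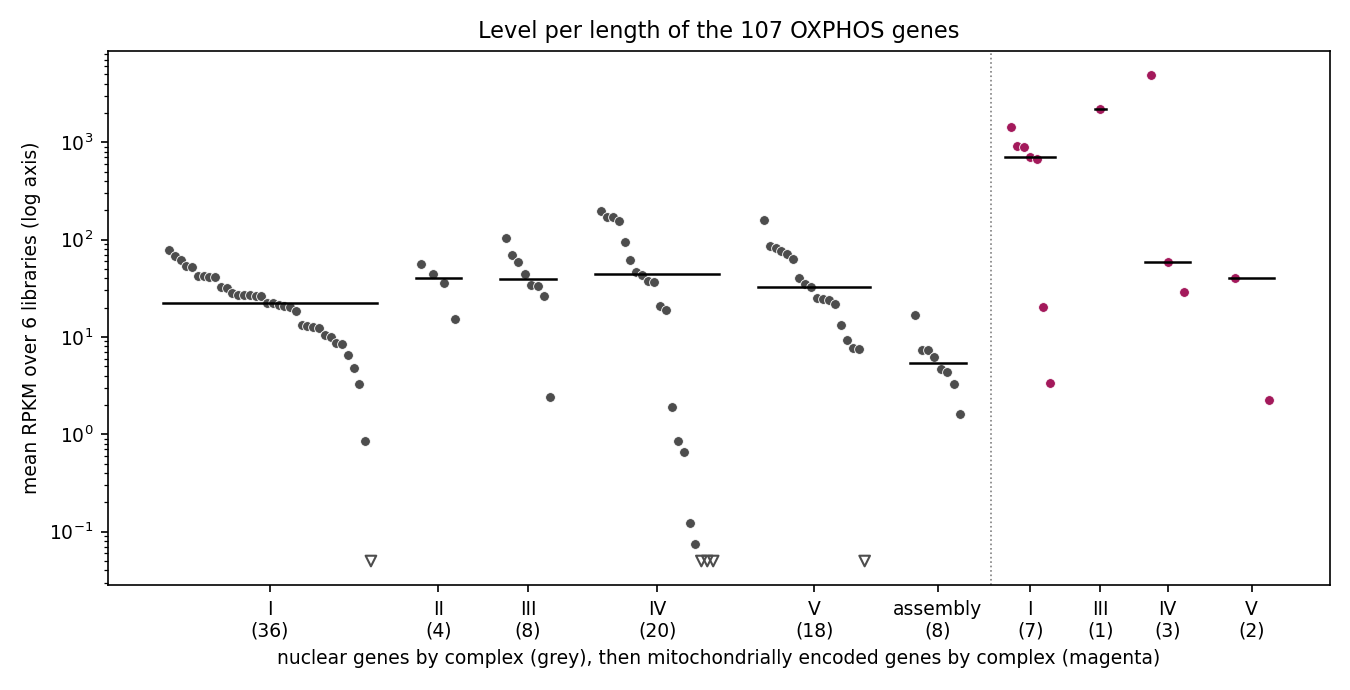
Mean RPKM over 6 libraries (log axis) of the 107 genes, by complex and genome of origin; the horizontal bar is the median of the tested members, and open triangles are the 5 genes listed at 0, drawn at the foot of the axis. The nuclear complex IV genes run from 195 RPKM down to isoforms near 0, and the Ndufaf genes lie lowest among the nuclear groups.

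Several complex IV subunits have a second gene that is known from heart, skeletal muscle, lung, brown fat or testis. In Tregs 1 isoform of each pair carried nearly all of the level per length. Cox4i1 stood at 154 RPKM against 0.123 RPKM for Cox4i2, Cox6a1 at 171 against 0.0752 for Cox6a2, Cox6b1 at 94.9 against 0.662 for Cox6b2, and Cox8a at 173 against 0.848 for Cox8b. Cox7a2 had 36.7 RPKM and the muscle form Cox7a1 1.91 RPKM. Cox7b2, Cox8c and Ndufa4l2 had 0 counts in all 6 libraries, where 3 counts would be 0.169 CPM at most, while Cox7b and Ndufa4 had 46.1 and 43.3 RPKM. The core complex I gene Ndufs3 was listed at 0 as well, so a listed 0 need not mean an absent transcript. Cox4i2 and Cox6a2 had 11 and 6 counts over all libraries. Cox6a2 shares all of its 953 bases with Itgad on the opposite strand. Whether counting used strand is not given in the sources used here, so the level of Cox6a2 is uncertain. The c-ring of the ATP synthase is encoded by 3 genes for one mature protein, of which Atp5g2 (70.8 RPKM) and Atp5g3 (63.7 RPKM) were above Atp5g1 (7.62 RPKM). The size of this gap depends on the deposited gene lengths. In mean CPM Atp5g2 stood at 119, Atp5g3 at 139 and Atp5g1 at 37.45.

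The promoters of the ubiquitous and the muscle form of Cox8 are shown as an example of such a pair. Each runs from 250 bases before to 50 bases after the start (RefSeq, GRCm38.p6, minus strand). For the pair Cox7a2 and Cox7a1, both promoters had 0 matches to the NRF1, ETS, YY1 and TATA letters given below. The Cox8 pair therefore does not stand for all pairs. Capitals mark the ETS motif CCGGAAG, read on the other strand, in Cox8a (chr19:7217567-7217866) and the letters TATAAA in Cox8b (chr7:140900397-140900696):
Cox8a: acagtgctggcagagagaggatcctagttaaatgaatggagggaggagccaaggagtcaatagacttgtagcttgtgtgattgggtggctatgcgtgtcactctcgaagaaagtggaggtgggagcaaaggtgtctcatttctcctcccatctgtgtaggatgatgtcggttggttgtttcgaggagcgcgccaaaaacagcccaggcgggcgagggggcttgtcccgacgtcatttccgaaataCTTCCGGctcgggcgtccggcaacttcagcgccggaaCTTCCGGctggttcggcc
Cox8b: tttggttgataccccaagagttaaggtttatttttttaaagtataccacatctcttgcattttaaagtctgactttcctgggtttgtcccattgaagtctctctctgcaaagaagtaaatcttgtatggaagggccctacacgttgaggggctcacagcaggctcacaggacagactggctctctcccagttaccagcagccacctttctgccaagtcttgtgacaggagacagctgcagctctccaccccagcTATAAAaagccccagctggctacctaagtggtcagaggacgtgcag

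The promoter of Cox6a1, another complex IV subunit, is shown because it had the highest level among members that hold the NRF1 motif. It spans chr5:115348909-115349208 on the minus strand, with NRF1 motifs and an ETS motif read on the other strand in capitals:
Cox6a1: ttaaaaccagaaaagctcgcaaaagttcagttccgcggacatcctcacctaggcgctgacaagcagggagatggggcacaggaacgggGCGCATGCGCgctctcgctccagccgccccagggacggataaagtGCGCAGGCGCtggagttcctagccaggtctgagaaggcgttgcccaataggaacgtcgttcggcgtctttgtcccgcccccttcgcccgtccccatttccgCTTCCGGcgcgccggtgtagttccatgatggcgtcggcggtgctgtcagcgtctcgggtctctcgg

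A promoter was matched for 75 of 93 nuclear symbols, and for 72 of the 86 nuclear members that were tested. NRF1 and the ETS factor GABP are known regulators of nuclear OXPHOS genes. The NRF1 letters, GCGC followed by any 2 bases and GCGC, occurred on either strand in 29.2% of these 72 genes, in 15.4% of the tested protein-coding genes with a promoter and in 6.23% of all promoters in the table. The ETS letters CCGGAAG occurred in 25.0%, 21.1% and 8.86%. ATGGCGG, the core of the YY1 motif, occurred in 16.7%, 9.64% and 4.05%, and TATAAA in 8.33%, 8.54% and 13.6%. A match is a run of letters, and binding was not measured.

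To ask whether Foxp3 exon 2 bears on the OXPHOS transcripts, Exon2KO was compared with WT over all genes that passed a filter on low counts, with edgeR's quasi-likelihood test and Benjamini-Hochberg adjustment. Of the 107 members 98 passed, 86 nuclear and 12 mitochondrially encoded. The 9 that did not were mt-Atp8, Cox4i2, Cox6a2 and Cox8b with few counts, and Cox7b2, Cox8c, Ndufa4l2, Ndufs3 and a second Atp5o entry with 0 counts. Ndufs3, a core subunit of complex I, was listed at 0 in every library, as was Kbtbd4, which overlaps it by 88 bases on the opposite strand.

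At an adjusted p under 0.05, 0 of the 98 members were called in either direction. Of all 14919 tested genes 348 were called (2.33%), with 113 higher in Exon2KO (0.757%) and 235 lower (1.58%). An unadjusted p under 0.05 was reached by 1 member, the complex I gene Ndufa12, and by 12.1% of all genes. DESeq2 also called 0 members, against 4.47% of all genes, with 2 members at an unadjusted p under 0.05 (11.5% of all genes). limma-voom called 0 members, against 1.94% of all genes, with 0 members at an unadjusted p under 0.05 (12.6% of all genes). Of 102 members with a comparison in the authors' deposited table, 0 had an adjusted p under 0.05, against 638 of 24985 genes.

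The estimates were close to 0 and fairly precise. The median log2 fold change was -0.0031 over the nuclear members, 43 of them above and 43 below 0, and 0.0084 over all tested genes. The median size of a member's log2 fold change was 0.062, against 0.138 over all tested genes. Of 98 members, 85 lay within 0.2 of 0, as did 62.2% of all tested genes. The median SE was 0.103 for members and 0.159 for all tested genes, and no set of genes matched in level was compared. Small sizes were not particular to the members. The median size was 0.068 for mitochondrial ribosome genes and 0.070 for tricarboxylic acid cycle genes, but 0.36 for proliferation genes. The 95% interval lay within 0.5 of 0 for 80 of the 98 members and for 47.4% of all tested genes. A change beyond this size was therefore outside the interval for most members. For the rest, the depth and spread in this fit could not exclude it. With the replicate block described below, the intervals of Atp5e (-0.15 to 0.22), mt-Nd6 (-0.41 to -0.11), mt-Atp6 (-0.44 to -0.060) and Uqcrb (-0.43 to 0.045) also lay within 0.5 of 0. So did those of Ndufa5 (-0.051 to 0.47), Ndufaf1 (-0.47 to 0.20) and Ndufb2 (-0.45 to 0.39). The intervals of the remaining wide members, such as Ndufa12 (-1.36 to -0.16), did not. In bulk RNA, fewer cells of a type and less RNA per cell cannot be told apart.

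**Figure D3:**
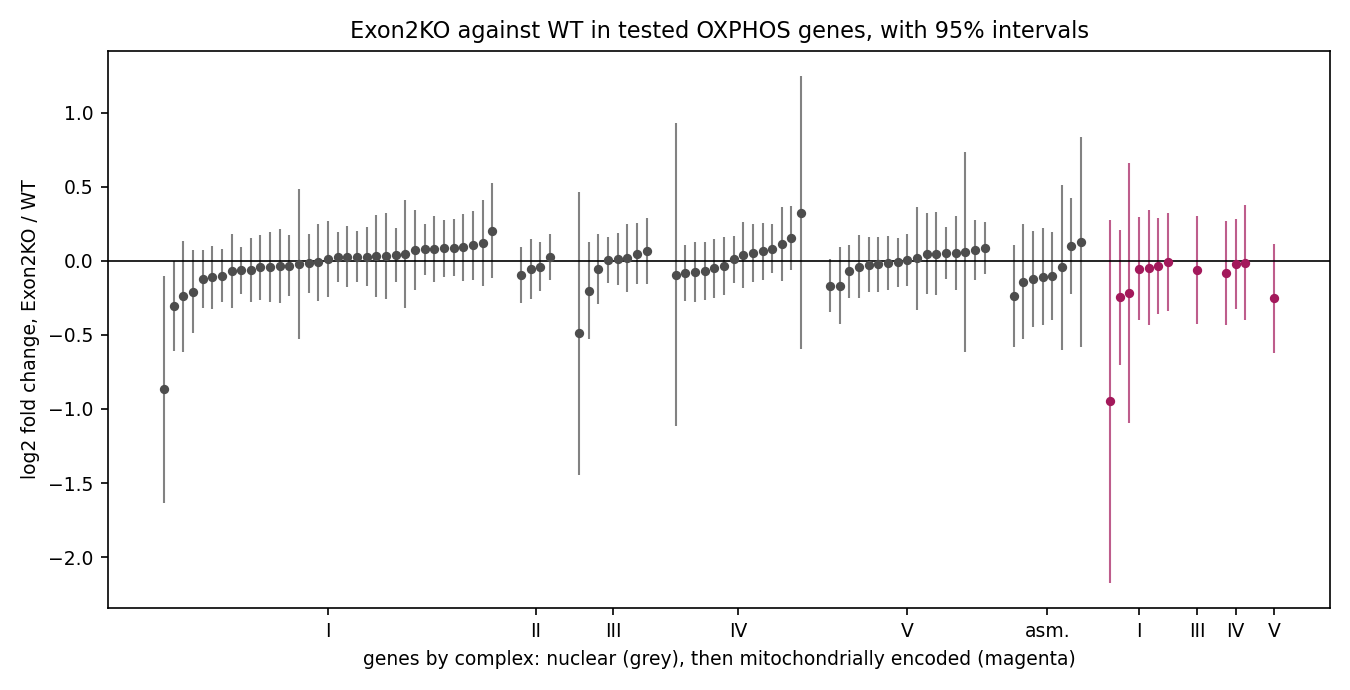
Log2 fold change of Exon2KO against WT from edgeR for the 98 tested members, by complex, with 95% intervals as vertical lines. Most points lie near 0, and the widest intervals belong to genes with few counts or with 1 library apart, such as mt-Nd4l and Cox7a1.

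The complexes gave similar values. The median log2 fold change of nuclear members was 0.012 for complex I (35 tested), -0.047 for complex II (4), 0.0087 for complex III (8), 0.025 for complex IV (14) and 0.0067 for complex V (17). It was -0.11 for the 8 assembly genes, where 6 lay below 0, from -0.24 for Ndufaf3 to 0.13 for Ndufaf2. Complex I without both libraries numbered 20 had a median of -0.046. The 4 complex II genes ranged only from -0.094 for the membrane anchor gene Sdhd to 0.027 for the flavoprotein gene Sdha.

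Single nuclear members are given at the ends of this range. Ndufa12, an accessory subunit of complex I on chromosome 10 (94198720 to 94221443, plus strand, GRCm38), had 7.25, 6.11 and 15.5 CPM in WT, and 5.06, 5.69 and 5.12 CPM in Exon2KO. The groups did not overlap, but WT 20 stood far above the other WT libraries. The edgeR estimate was a log2 fold change of -0.87 with SE 0.34 and adjusted p = 0.327. Each library was also left out in turn, which gave -1.1 to -0.34, with -0.34 without WT 20.

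Uqcrc1, a core subunit of complex III, was also highest in WT 20, with Exon2KO 6 next. It had 7.57, 10.3 and 17.3 CPM in WT and 5.61, 12.8 and 6.58 CPM in Exon2KO. The edgeR estimate was -0.49 on the log2 scale (SE 0.40, adjusted p = 0.767). Leaving out single libraries gave -0.95 to -0.097, and without both libraries numbered 20 the value was 0.048. The complex I gene Ndufb9 had 13.6, 15.3 and 12.95 CPM in WT and 11.3, 11.1 and 11.5 CPM in Exon2KO, with no overlap. Its log2 fold change in edgeR was -0.30 (SE 0.14; adjusted p = 0.413).

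Groups did not overlap for 5 members, all lower in Exon2KO, namely Ndufa10, Ndufb7, Ndufb9, Ndufa12 and Atp5j2. Over all tested genes this held for 9.32% downward and 8.35% upward, so 5 of 98 downward and 0 upward do not exceed the background. Among the higher estimates, Cox7a2l had 277, 304 and 241 CPM in WT and 325, 293 and 297 CPM in Exon2KO, which overlapped. The edgeR estimate was 0.15 on the log2 scale (SE 0.096, adjusted p = 0.63). Ndufa5 of complex I had 0.20 (SE 0.14, adjusted p = 0.685). Leaving out single libraries gave 0.068 to 0.24 for Cox7a2l and 0.11 to 0.35 for Ndufa5.

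All 12 tested mitochondrially encoded genes had a log2 fold change below 0, with a median of -0.057, and -0.054 relative to the nuclear median. They are transcribed as long joint precursors and so are not separate observations. The median was -0.054 over the 7 tested genes of complex I and -0.024 over the 3 of complex IV. Complexes III and V had a single tested gene each, mt-Cytb at -0.061 and mt-Atp6 at -0.25. mt-Atp6 and the complex IV genes mt-Co2 and mt-Co3 are among those with over 95% shared windows. For mt-Co1 the values were 7828, 8661 and 6339 CPM in WT and 7855, 8896 and 5858 CPM in Exon2KO. Its level was lowest in number 20 and highest in number 6 of both genotypes. The groups overlapped for mt-Co1 and for each of the other 11 genes. The mt-Co1 log2 fold change in edgeR was -0.014 (SE 0.17; adjusted p = 0.992). Leaving out 1 library at a time moved the median over the 12 genes between -0.17 and 0.080.

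mt-Nd4l, a complex I subunit gene, differed in its pattern. It had 4.78, 4.08 and 15.1 CPM in WT and 4.11, 5.08 and 3.26 CPM in Exon2KO, with WT 20 alone high. It is among the genes with over 95% shared windows, and its log2 fold change in edgeR was -0.95 (SE 0.52; adjusted p = 0.584) and 0.053 without both libraries numbered 20.

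**Figure D4:**
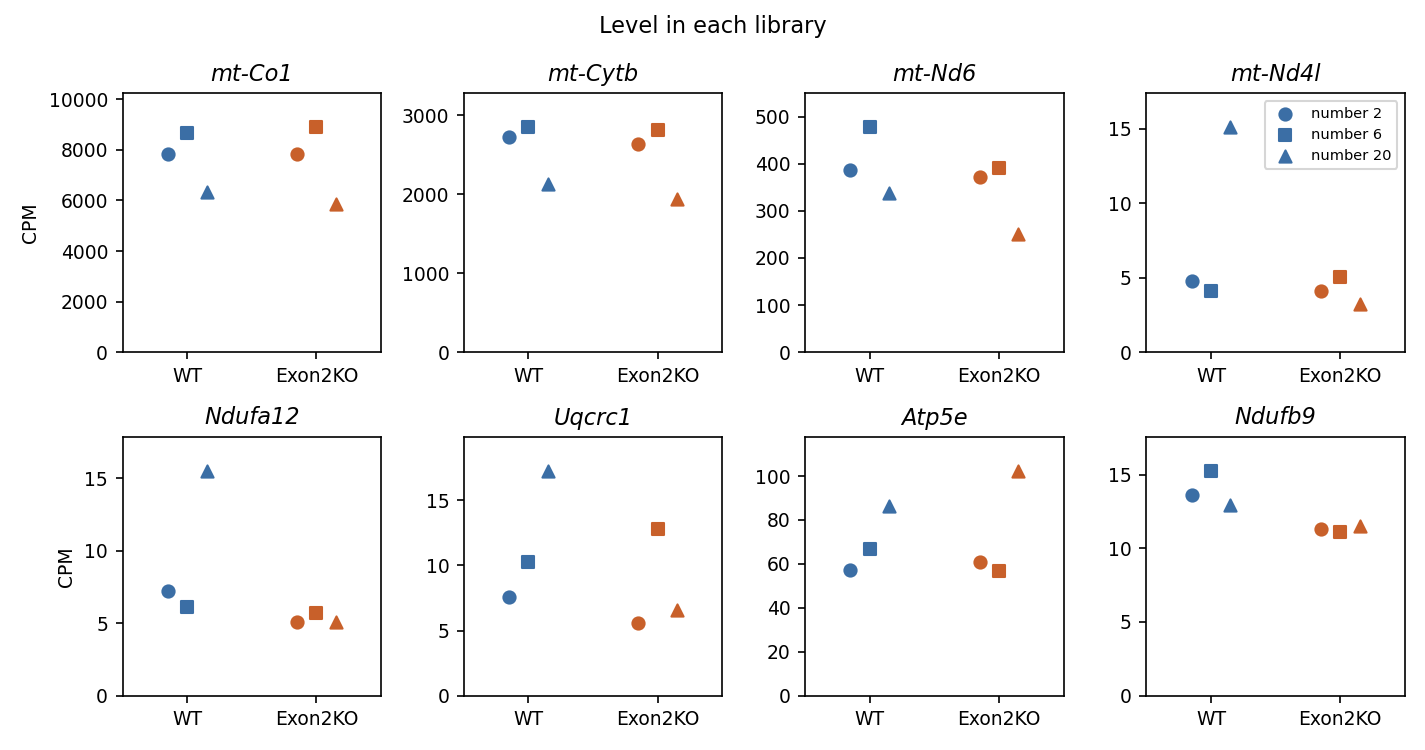
CPM in each library (linear axes from 0) of 8 members; colours are genotypes and marker shapes the column numbers 2, 6 and 20. mt-Co1, mt-Cytb and mt-Nd6 are lowest in number 20 of both genotypes, Atp5e is highest there, Ndufa12 and mt-Nd4l are high in WT 20 alone, and Uqcrc1 is highest in WT 20 with Exon2KO 6 next.

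The column number was called for more of the mitochondrially encoded genes than genotype was in the same fit, 9 against 1. In an edgeR fit with genotype and number, a test of the number called 1559 of 14919 genes (10.4%) at an adjusted p under 0.05. It called 9 of the 12 tested mitochondrially encoded genes, all but mt-Co3, mt-Nd3 and mt-Nd4l, and 1 of the 86 nuclear members. The nuclear one was Atp5e, the epsilon subunit of ATP synthase, at 57.2, 66.9 and 86.2 CPM in WT and 60.8, 56.5 and 102 CPM in Exon2KO, highest in number 20 of both genotypes. This test was added after the data were seen. The ratio of mitochondrially encoded to nuclear OXPHOS counts was 3.07, 2.98 and 2.37 in WT and 2.88, 3.24 and 2.08 in Exon2KO. The nuclear members showed no such drop in number 20. Their share was 0.541%, 0.586% and 0.561% of all counts for WT, against 0.556%, 0.537% and 0.567% for Exon2KO.

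**Figure D5:**
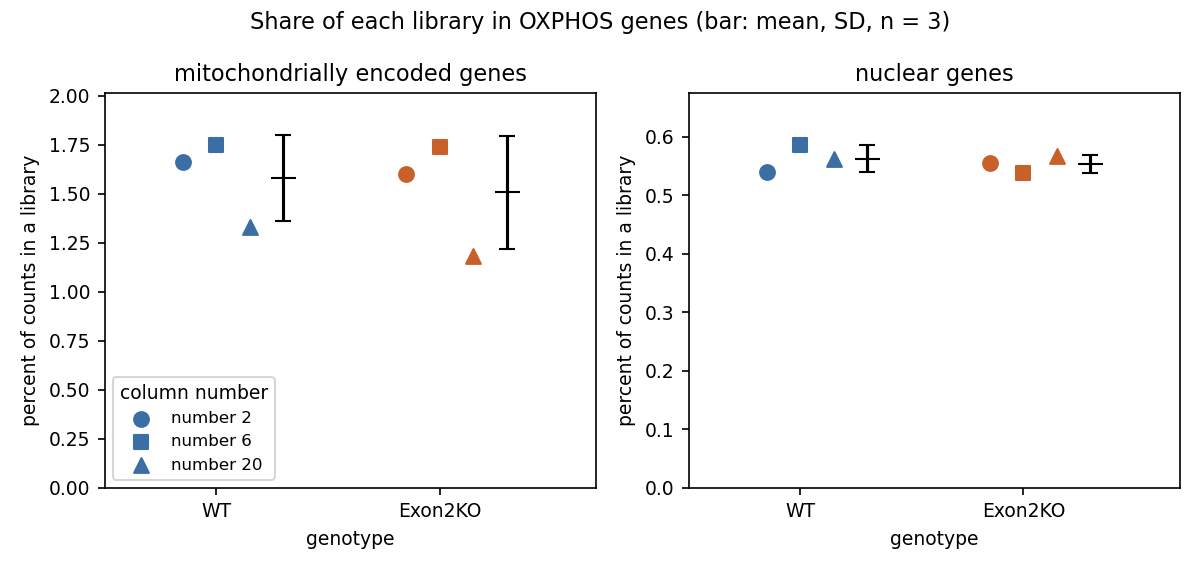
Percentage of each library's counts in the 13 mitochondrially encoded and the 94 nuclear members; markers are libraries by column number and the bar is the mean with SD (n = 3). Both libraries numbered 20 lie lowest for the mitochondrially encoded genes, at 1.33% and 1.18%, and within the range of the others for the nuclear genes.

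The number was also called for genes of other lists. The summed level of 21 proliferation genes was 1299, 1421 and 2240 CPM in WT and 1162, 1304 and 1748 CPM in Exon2KO, and 20 of the 21 were called for the number. Myeloid markers, of which 3 of 7 were called for the number, summed to 35.1, 34.4 and 79.4 CPM in WT and 29.7, 30.7 and 65.0 CPM in Exon2KO. Erythroid and platelet markers, with 3 of the 4 tested called, summed to 11.6, 17.6 and 5.63 CPM in WT and 10.2, 13.9 and 3.60 CPM in Exon2KO. The part of these lists in the mitochondrial values was not tested.

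With the column number as a replicate block, 1450 of all genes were called (9.72%), 586 of them higher (3.93%) and 864 lower (5.79%). Among the 98 members 1 was called, mt-Nd6, which was lower. An unadjusted p under 0.05 was then reached by 6 members, against 21.5% of all genes. mt-Nd6 (mitochondrial DNA 13552 to 14070, minus strand) had 387, 477 and 337 CPM in WT and 372, 391 and 251 CPM in Exon2KO. The genotypes overlapped, while each Exon2KO library lay below the WT library of the same number, by log2 differences of -0.06, -0.29 and -0.43. The log2 fold change was -0.26 with the block (SE 0.072, edgeR adjusted p = 0.033) and -0.25 without it (SE 0.19, adjusted p = 0.75). The call therefore rests on the block and is near the threshold. It also needed all 3 numbers: with the block and without both libraries numbered 2, 6 or 20, the estimate was -0.36, -0.25 or -0.18 (edgeR adjusted p = 0.109, 0.0672 and 0.275). Without the block, leaving out single libraries gave -0.37 (without Exon2KO 6) to -0.076 (without Exon2KO 20), with -0.099 without WT 6. mt-Nd6 was not the only mitochondrially encoded gene below its WT partner at every number: 6 of the 12 tested were, the others being mt-Nd2, mt-Nd4, mt-Cytb, mt-Co2 and mt-Atp6, and 0 were above it at every number. Among nuclear members 7 of 86 were lower and 6 higher at every number, and among all tested genes 20.9% were lower and 21.4% higher. mt-Atp6, a complex V subunit, had 33.8, 32.9 and 23.9 CPM in WT and 28.3, 26.8 and 20.9 CPM in Exon2KO, with overlap between the genotypes. With the block its log2 fold change of -0.25 was close to that of mt-Nd6 but did not pass the test (SE 0.089, edgeR adjusted p = 0.0998), and 99.5% of its windows are shared. Without the block, leaving out single libraries gave -0.40 to -0.14 for mt-Atp6.

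mt-Nd6 was also set against the 4 tested genes of the other strand with at most 3.19% shared windows, mt-Nd1, mt-Nd2, mt-Nd5 and mt-Cytb. Its counts came to 5.51%, 6.70% and 6.03% of the sum of these 4 in WT and to 5.37%, 5.42% and 4.95% in Exon2KO. The groups did not overlap, although WT 2 and Exon2KO 6 lay close together. The mean was 6.08% ± 0.598 in WT (SD, n = 3) and 5.25% ± 0.256 in Exon2KO (SD, n = 3). Each Exon2KO value lay below the WT value of the same number, and no test is given. Set against 6 genes, with mt-Co1 and mt-Nd4 added, mt-Nd6 came to 2.65% ± 0.198 in WT (SD, n = 3) and to 2.26% ± 0.104 in Exon2KO (SD, n = 3). This ratio was chosen after the values of mt-Nd6 were seen. Whether counting used strand is not given in the sources used here, and without strand, reads of mt-Nd6 and of antisense RNA from the other strand cannot be told apart.

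Genes around the OXPHOS set were read from fixed lists, and 0 genes were called in each of the following without the block. Of 38 tested further OXPHOS genes, such as cytochrome c and assembly factors, the median log2 fold change was 0.040, from -0.35 for Atpif1, the ATP synthase inhibitor, to 0.42 for Cox11. It was 0.056 over 28 genes of mitochondrial DNA expression and upkeep, with Fastkd5 at 0.31 and Tefm at -0.19, and 0.090 over 10 biogenesis regulators, with Ppargc1b, a coactivator, at 0.24 and Gabpb1 at -0.059. Over 18 genes of the tricarboxylic acid cycle it was 0.013. There Idh2, the mitochondrial NADP-dependent isocitrate dehydrogenase, had 26.4, 23.7 and 24.3 CPM in WT and 30.4, 31.8 and 30.8 CPM in Exon2KO without overlap (edgeR log2 fold change 0.32, SE 0.098, adjusted p = 0.17), and adjusted p = 0.0359 with the block. The lowest of that list was Idh3a at -0.13.

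The 76 tested genes of the mitochondrial ribosome had a median of 0.0024. Mrps23 had the lowest value, -1.6 (SE 0.71, edgeR adjusted p = 0.453), with 10.3 CPM in WT 20 and 1.40 to 2.75 CPM in the other 5 libraries. Mrps5 had 61.1, 41.1 and 79.3 CPM in WT and 72.5, 50.9 and 104 CPM in Exon2KO, which overlapped. Each Exon2KO library was higher than its WT partner, and Mrps5 was called with the block (edgeR log2 fold change 0.32, SE 0.066, adjusted p = 0.00572). The 21 proliferation genes had a median of -0.35 with 0 called, from -0.70 for Ccnb1 to 0.50 for Kif11, and 8 were called lower with the block. The chromosome 1 copy Gm28438 was called lower with the block (log2 fold change -0.77, edgeR adjusted p = 0.0134), while mt-Nd3, from which its letters differ at 1 base, had -0.24 there (adjusted p = 0.805).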

How the data were processed

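RNA of 6 Treg libraries was sequenced. Per the submitters' processing notes, the authors used mm10, HISAT2 2.0.5, StringTie 1.3.3b, featureCounts 1.5.0-p3 and DESeq2 1.16.1, with roles, strand and read length not given in the sources used here. Per the file headers, the authors deposited counts per gene (not normalized), gene lengths, and their own log2 fold changes and p-values. The 6 further per-library columns, deposited FPKM, were not used; RPKM were computed from counts, gene length and total counts. Here counts were tested with edgeR 4.0.16 (R 4.3.3; filterByExpr, TMM, robust quasi-likelihood fit, two-sided, Benjamini-Hochberg over 14919 genes, called at adjusted p under 0.05), and CPM use TMM-scaled library sizes. The SE is the log2 fold change divided by the square root of F. Libraries were mapped to genotype by column name. Libraries with the same number deviated together from their genotype means (correlations across genes 0.271, 0.369 and 0.494), so the number served as a replicate block. Correlations between libraries of unlike numbers were not computed. Deviations from a mean of 3 libraries depend on each other, so these values do not show pairing for each number separately. No same-genotype pair was a duplicate (chi-square per degree of freedom 8.12 to 23.6). DESeq2 1.42.0, limma 3.58.1, other filters and scalings, gene-length offsets (lowess, span 0.3) and leaving out libraries were alternatives. Motifs are short strings; the YY1 core replaced a longer form after values were seen. The scripts were tested on simulated data. Members and lists were chosen with earlier results of these data known. Named genes were all mitochondrially encoded genes, called genes, isoform pairs, genes failing the filter, and the highest, lowest and most abundant of each complex, others being chosen after their values were seen.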

Additional observations from a re-analysis of the deposited data

How the results depend on the processing

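The number of genes called among all tested was 617 without a count filter, 667 with DESeq2, 1450 with the replicate block and 1587 with the block and a gene-length offset, and 86 to 314 without single libraries. Members called lower numbered 1, mt-Nd6, with the replicate block (-0.26) and with the block and length offset (-0.30, adjusted p = 0.0362), and 0 under the other settings in which the genotype test was counted over the 97 to 102 members it tested; the block changed no other member's call. Without single libraries the nuclear median ranged from -0.044 to 0.032, the mitochondrially encoded median from -0.17 to 0.080 and their difference from -0.18 to 0.11. The medians then ranged from -0.038 to 0.052 (complex I), -0.11 to -0.017 (II), -0.040 to 0.023 (III), -0.013 to 0.073 (IV) and -0.053 to 0.042 (V). The Exon2KO to WT ratio of mean count shares ranged from 0.880 to 1.06 (mitochondrially encoded) and 0.965 to 1.00 (nuclear). The difference between both medians was -0.051 without the 7 mitochondrially encoded genes that have an annotated chromosome 1 copy. Without both libraries numbered 20, an alternative chosen after seeing the data, complex I moved to -0.046 and signs turned for mt-Nd1 (0.035), mt-Nd4l (0.053), mt-Nd5 (0.015), mt-Co1 (0.022), Uqcrc1 (0.048), Uqcrh (-0.028) and Atp5e (-0.083). Signs also turned for mt-Co1 with the length offset (0.011) and for Uqcrh without a filter (-0.0027), with at least 10 counts in every library (-0.0047), with upper-quartile scaling (-0.0096) and with scaling that leaves out mitochondrially encoded RNA (-0.0011); the cause was not tested. Of 512 values for 30 named genes, 466 kept direction and call, and 44 changed sign, 32 of them without a single library. Leaving out single libraries also turned signs for mt-Nd1 (-0.106 to 0.132), mt-Nd2 (-0.165 to 0.0873), mt-Nd4 (-0.184 to 0.0929), mt-Nd5 (-0.127 to 0.101), mt-Cytb (-0.181 to 0.0798), mt-Co1 (-0.16 to 0.134), mt-Co2 (-0.206 to 0.0458), mt-Co3 (-0.141 to 0.0699), Ndufb11 (-0.0125 to 0.0734), Uqcrq (-0.0162 to 0.114), Uqcrh (-0.0283 to 0.0344), Cox6b2 (-0.506 to 0.0957), Ndufaf2 (-0.102 to 0.38) and Atp5e (-0.263 to 0.237). For mt-Nd6, single libraries left out gave -0.374 to -0.0763, and with the block the call was lost without any 1 of the 3 numbers (-0.36 to -0.18), a setting added after seeing the data. The Exon2KO to WT ratio of its relative level was 0.824 to 0.910 without single libraries, where its direction could not turn because the groups do not overlap, and 0.856 against 6 genes, added after seeing the data. The planned comparison with deposited FPKM was not run. At a mean of 1.03 CPM, Cox7a1 had a 95% interval of its log2 fold change from -0.60 to 1.25, so a change within it was not detectable at this depth.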
